A study of Mus musculus with 2 samples.

Results

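The mitochondrial genome of the mouse carries 37 genes, and their RNA was measured in inflammation-experienced regulatory T cells, a CD4 T cell population that keeps immune reactions in check and depends on the transcription factor Foxp3. The genes were taken as all entries whose GENCODE M21 name starts with mt-, which gave 37 of 55536 annotated genes. They comprised 13 mRNA genes, 2 rRNA genes and 22 tRNA genes. The cells were primary cells from a male adult of 6 months, and the strain is given as Foxp3CreERT2 x Rosa26YFP, in which the Foxp3 locus drives an inducible Cre recombinase and YFP reports its activity. The labels also name a bone marrow hematopoietic cell as the origin, do not say how inflammation was brought about, and do not say whether animals were pooled. Polyadenylated RNA of 1 biological replicate was made into 2 technical libraries after shearing, with a size range of 100 to 300 bp. No other group was analysed here, so the data give levels and the spread between these libraries, which is technical and not a spread between animals.

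Gene totals were 15386113 estimated counts in technical replicate 1 and 13604480 in technical replicate 2, and a gene with 0 counts may thus hold up to 3 counts, or 0.195 and 0.221 CPM (counts scaled to the library total). TPM, the authors' level per gene length on a fixed total, was at least 1 in both libraries for all 8 genes of the regulatory T cell list. The list includes Cd3e, Cd3g and Cd4, which other T cells carry too, so it does not tell regulatory from other CD4 T cells by itself. The median of the 8 genes was 334 TPM, led by Cd3g at 1154, Cd3e at 749 and Tnfrsf18 at 456 TPM, and Foxp3 was the lowest at 19.98 TPM. Markers of other cells were low. The CD8 T cell genes Cd8a and Cd8b1 stood at 2.44 and 11.2 TPM and the red cell genes Hba-a1 and Hbb-bs at 3.23 and 7.74 TPM, while the other markers given here fell below 1 TPM in at least 1 library. These were Cd79a and Ms4a1 of B cells, Ncr1 and Klrb1c of NK cells, Lyz2, C1qa, Adgre1 and Csf1r of macrophages, S100a8, S100a9 and Ly6g of neutrophils, Pf4 and Ppbp of platelets, and Col1a1 and Col1a2 of stromal cells. Of these Cd79a was highest with a mean of 1.27 TPM, and Ncr1, Adgre1 and Ppbp were at 0 in both libraries. Their part in the mitochondrial levels was not tested. In bulk RNA, fewer cells of a type and less RNA per cell cannot be told apart.

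As background, mitochondrial DNA encodes core subunits of the respiratory chain and of ATP synthase, together with the rRNAs and tRNAs that translate them. Both strands are transcribed as long precursors from which the tRNAs are cut out, which releases the rRNAs and mRNAs lying between them. Most mRNAs then receive a poly(A) tail inside the organelle, the rRNAs carry short tails, and mature tRNAs end in CCA. In T cells, mitochondrial respiration is known to support regulatory T cell function.

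The genes were packed with almost no spacer. Of the 36 junctions between neighbouring genes, 9 were overlaps, 21 had no gap at all and 35 had a gap of at most 5 nt, and the longest gap was 32 nt. On the annotated plus strand, whose RNA is copied from the heavy-strand template, lay 28 genes, and 9 lay on the minus strand: mt-Nd6 and 8 tRNA genes. Of the 13 mRNA genes, 10 ended in a complete stop codon. The other 3 ended in a lone T, which a poly(A) tail turns into the stop codon UAA. These 3′ ends are shown because here the tail on which the libraries were selected also completes the reading frame, and the capital marks the lone T (GENCODE M21 transcripts, build mm10, plus strand).
mt-Co3, chrM:9361-9390: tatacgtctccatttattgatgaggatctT
mt-Nd4, chrM:11515-11544: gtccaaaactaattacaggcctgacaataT
mt-Cytb, chrM:15259-15288: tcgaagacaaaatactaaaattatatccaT

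The longest overlap joined mt-Atp8 and mt-Atp6, which encode membrane subunits of ATP synthase and are read from a shared RNA. It spanned 43 nt at chrM:7927-7969 on the plus strand, shown with the start codon of mt-Atp6 in capitals because reads within it belong to both genes.
Overlap of mt-Atp8 and mt-Atp6: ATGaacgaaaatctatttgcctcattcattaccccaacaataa

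At the 3′ end of mt-Co1, which encodes the catalytic core subunit of cytochrome c oxidase, the tRNA gene mt-Ts1 lies on the opposite strand, and its last 3 nt overlap with the end of mt-Co1. The end of mt-Co1 (chrM:6843-6872, plus strand) is shown beside the complement of mt-Ts1 (chrM:6870-6938, printed on the plus strand), with the shared stop codon in capitals, because the level of mt-Ts1 below rests on this stretch.
mt-Co1, 3′ end: gaggaaccaacctatgtaaaagtaaaaTAA
Antisense of mt-Ts1: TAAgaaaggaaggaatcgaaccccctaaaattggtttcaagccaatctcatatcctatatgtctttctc

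Several mitochondrial genes have nearly identical copies in the nuclear genome, and reads cannot be placed between a gene and an identical copy. A search of all annotated transcripts found 11 nuclear pseudogenes matching a mitochondrial gene at 95% identity or more. Of these, 7 lay side by side on chromosome 1 at 24611535 to 24616197 (mm10), all on the minus strand and in the mitochondrial order, spanning 4663 nt. The copy of mt-Atp6, Gm10925, matched 678 nt without a difference and lacked only the last 3 nt, in capitals here (mt-Atp6 at chrM:8578-8607, Gm10925 at chr1:24613974-24614000 on the minus strand).
mt-Atp6, 3′ end: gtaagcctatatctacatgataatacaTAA
Gm10925, 3′ end: gtaagcctatatctacatgataataca

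Over 483 of its 492 nt Gm29216 matched the end of mt-Co1 with a single difference, A1066T, counted from 1 at the 5′ end of mt-Co1. Both stretches are shown with that base in capitals, since within the match it is the only base that tells the sequences apart (mt-Co1 at chrM:6390-6413 on the plus strand, Gm29216 at chr1:24616165-24616188 on the minus strand).
mt-Co1: ggaAttgttttatccaactcatcc
Gm29216: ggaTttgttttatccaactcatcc

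The mitochondrial genes took 3.72% and 3.65% of the gene counts in technical replicates 1 and 2. The 95% Clopper-Pearson intervals, which cover counting error only, were 3.71% to 3.73% and 3.64% to 3.66%, so the libraries differed slightly but by more than counting error. Of the mitochondrial counts, 70.1% and 69.5% fell in the mRNA genes. The rRNA genes held 29.6% and 30.2%, although the libraries were selected for poly(A). The tRNA genes held 0.334% and 0.340%, and the amount of mature tRNA was not measured (below). Reads were found in both libraries for 30 of the 37 genes, and 10 of the genes were among the 100 highest of all genes by mean TPM.

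Among the mRNAs, those of complex IV, cytochrome c oxidase, held the largest share of counts at 51.9% and 49.4%. Complex I, the NADH dehydrogenase that feeds electrons into the chain, has 7 mitochondrially encoded subunits, and these held 21.2% and 21.8%. The single mRNA of complex III, mt-Cytb, held 13.5% and 13.4%, and the mRNAs of complex V, the ATP synthase, held 13.4% and 15.4%. The shares of complexes IV and V moved in opposite directions between the libraries, and both contain genes whose reads are divided with nuclear copies (below). With the counts of the copies added, complex V held more counts than complex I in each library, so their order depends on that division.

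**Figure D1:**
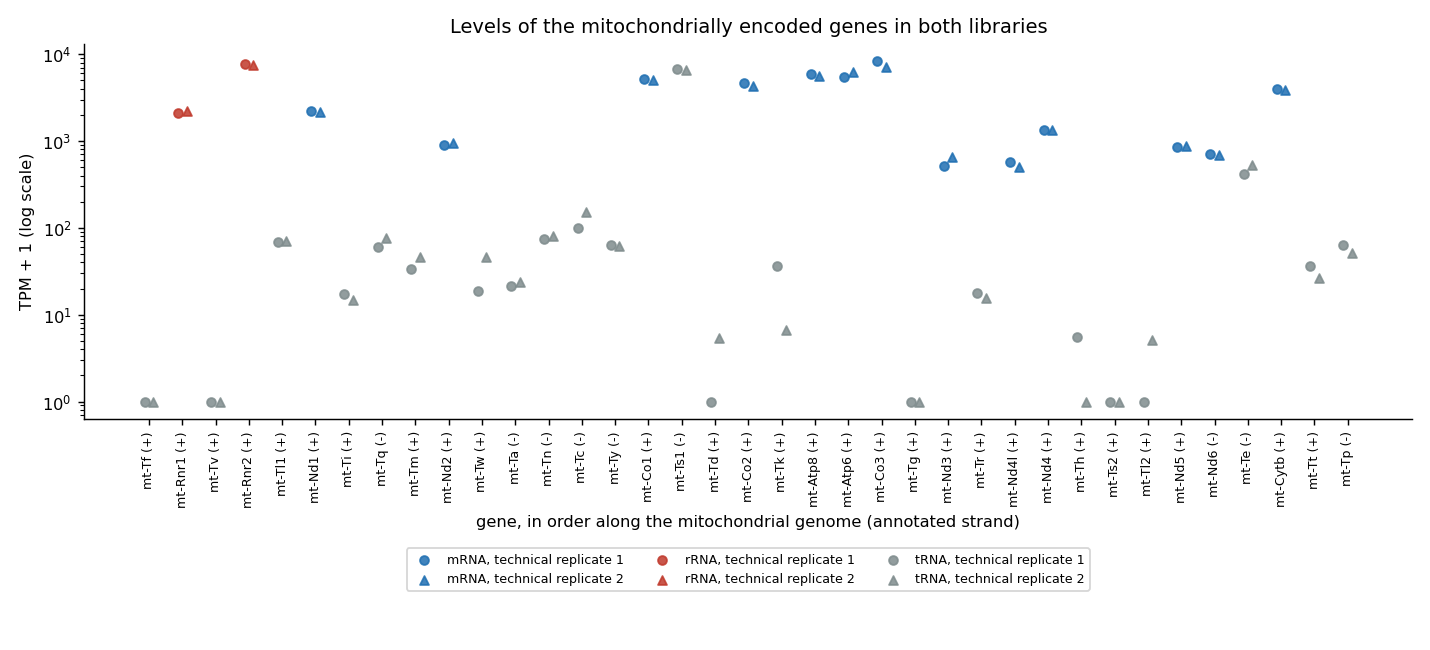
Level of each mitochondrially encoded gene as TPM + 1 on a log axis, in order along the genome, with circles for technical replicate 1 and triangles for technical replicate 2, coloured by class. The mRNA genes lie between 506 and 8337 TPM in single libraries, and all tRNA genes other than mt-Ts1 lie at or below 528 TPM.

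The complex IV subunit mt-Co3 had the highest mean level, with 8337 TPM in technical replicate 1 and 7050 in technical replicate 2. The other catalytic-core genes followed lower: mt-Co1 stood at 5165 and 5099 TPM. The copper-binding subunit gene mt-Co2 stood at 4592 and 4273 TPM. The range of mt-Co3 lay above those of mt-Co1 and mt-Co2 without overlap, but mt-Co3 also varied most between the libraries among these genes.

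As deposited, the ATP synthase genes lay close to each other. The proton-channel subunit gene mt-Atp6 was at 5425 and 6264 TPM, and mt-Atp8, a short membrane subunit, was at 5849 and 5611 TPM. Their ranges overlapped, and their ratio changed sides between the libraries, from 0.93 to 1.12. With the counts of its nuclear copy added (below), mt-Atp6 was 1.86 and 1.91 times mt-Atp8, so this closeness depends on how reads are divided. The cytochrome b gene mt-Cytb was at 3977 and 3835 TPM, below every mRNA of complexes IV and V. By posterior mean TPM, the second estimate in the same table, mt-Cytb lay below mt-Co2 in technical replicate 1 (3538 and 3658 TPM) but above it in technical replicate 2 (3363 and 3291 TPM).

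All 7 complex I mRNAs were lower than all 6 mRNAs of complexes III, IV and V. The highest, mt-Nd1, stood at 2233 and 2160 TPM, and the lowest value of the other complexes was 1.78 times that of mt-Nd1 in each library. Next came mt-Nd4 at 1343 and 1326 TPM and mt-Nd2 at 897 and 940 TPM, both encoding proton-pumping membrane subunits. These ranges did not overlap with each other.

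Another pumping subunit gene, mt-Nd5, was at 849 and 871 TPM. The minus-strand gene mt-Nd6 was at 705 and 690 TPM, so the median heavy-strand mRNA was 4.41 and 4.34 times higher. It lay directly below mt-Nd5, with which it shares 14 nt on the opposite strand, at 0.83 and 0.79 times its level. At the bottom, mt-Nd3 was at 514 and 656 TPM and mt-Nd4l at 574 and 506 TPM, and their ranges overlapped. With the counts of its nuclear copy added (below), mt-Nd3 came to 761 and 851 TPM, above mt-Nd6 and clear of mt-Nd4l, so its place at the bottom depends on how reads are divided. The median complex I mRNA was 860 ± 15.7 TPM (SD, n = 2 technical libraries), against 5325 ± 42.4 TPM for the mRNAs of complexes III, IV and V.

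The 16S rRNA gene mt-Rnr2, of the large ribosomal subunit, stood at 7650 and 7593 TPM, second to mt-Co3 and not separated from it. By posterior mean TPM it lay above mt-Co3, at 6805 and 6658 against 5632 and 5169 TPM. The 12S rRNA gene mt-Rnr1, of the small subunit, stood at 2097 and 2209 TPM and overlapped with mt-Nd1. The 16S gene was thus 3.65 and 3.44 times the 12S gene per length, although both lie on the same precursor. These values describe RNA that was caught by poly(A) selection, and the amount of rRNA not caught was not measured.

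Along the genome, levels did not fall steadily with distance from the start of the heavy-strand transcript. Over the 12 heavy-strand mRNA genes, log2 TPM and position had a Pearson r of -0.13 and -0.14 and a Spearman rho of -0.29 in both libraries, given as a description across genes that share a library and in part a precursor. The mRNA genes from mt-Co1 to mt-Co3 formed a run between 4273 and 8337 TPM. The mRNA genes from mt-Nd3 to mt-Nd6 lay between 506 and 1343 TPM, and mt-Cytb, last in order, returned to a mean of 3906 TPM. Levels of neighbouring genes could differ sharply: mt-Nd4 was 2.34 and 2.62 times mt-Nd4l, with which it overlaps by 7 nt.

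Among the 22 tRNA genes, whose length of 59 to 75 nt left only 10 to 26 start positions for a read, 4 had no read in either library (mt-Tf, mt-Tv, mt-Tg and mt-Ts2). With 8 genes at 10 counts or more in both libraries, most counts fell in mt-Ts1, a serine tRNA. It had 1658 and 1425 counts, 86.8% and 84.5% of all tRNA counts, and 6672 and 6490 TPM. This was 1.29 and 1.27 times the TPM of mt-Co1, whose 3′ end it adjoins on the opposite strand (sequences above). TPM divides by the start positions, of which mt-Ts1 has 20. Per kb of annotated length the order was the reverse, with 1562 and 1518 CPM for mt-Ts1 against 4039 and 3984 for mt-Co1.

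The glutamate tRNA gene mt-Te, which follows mt-Nd6 on the minus strand without a gap, came next with 104 and 116 counts. Its TPM was 0.59 and 0.77 times that of mt-Nd6. The strand setting of the counting is not given in the sources used here. Reads from RNA that runs past mt-Co1 therefore cannot be told apart from reads of mt-Ts1, nor can antisense RNA of the mt-Nd5 side be told apart from mt-Nd6 and mt-Te.

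The remaining tRNA genes at 10 counts or more in both libraries had few reads. They were mt-Tc for cysteine with 21 and 28 counts, mt-Tn for asparagine with 20 and 19, and mt-Tl1 for leucine with 22 and 20. Then followed mt-Tq for glutamine with 16 and 18, mt-Ty for tyrosine with 14 and 12, and mt-Tp for proline with 14 and 10. Of the 8 genes at 10 counts or more all but mt-Tl1 lie on the minus strand, so 7 of the 8 minus-strand tRNA genes but 1 of the 14 plus-strand tRNA genes reached 10 counts in both libraries. The median count was 18 and 18.5 for the minus-strand tRNA genes and 2.5 and 1 for the plus-strand ones. At such counts the order of the tRNA genes was not resolved. With the strand setting not given, reads over any tRNA gene cannot be told apart from RNA of the opposite strand. The contrast is therefore one between annotated positions and not between tRNAs of each strand. The amount of mature tRNA was not measured in these poly(A)-selected libraries.

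The nuclear pseudogenes held 0.584% and 0.597% of the gene counts, which together with the mitochondrial genes made 4.30% and 4.24%. Nearly all of this lay in 5 pseudogenes of the chromosome 1 block. Gm10925, the copy of mt-Atp6, was given 42847 and 30872 counts, so that of the counts of gene and copy together it took 50.1% in technical replicate 1 and 41.5% in technical replicate 2. For mt-Co3, the copy Gm28437 was given 20348 and 25684 counts, or 21.1% and 31.1% of the sum. The copies thus moved against each other between the libraries, the one down and the other up.

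The other copies in the block took smaller amounts. Gm28661, identical to mt-Co2 over 681 nt, was given 12191 and 10808 counts. Gm29216, the partial copy of mt-Co1, was given 13364 and 13060 counts, and Gm28438, the copy of mt-Nd3, 918 and 642. By mean TPM these 5 stood at 4977 for Gm10925, 2709 for Gm28437, 2557 for Gm29216, 1555 for Gm28661 and 224 for Gm28438. In contrast Gm10222 and Gm28439, which match mt-Nd4l and mt-Nd4 without a difference, were given 0 estimated counts in both libraries, so the estimate divided the reads differently from gene to gene. The posterior mean count, a second estimate in the same table, gave mt-Co3 57821 and 47564 counts in place of 76135 and 56889, which is 75.9% and 83.6% of them, and gave Gm28437 38662 and 35008.

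**Figure D2:**
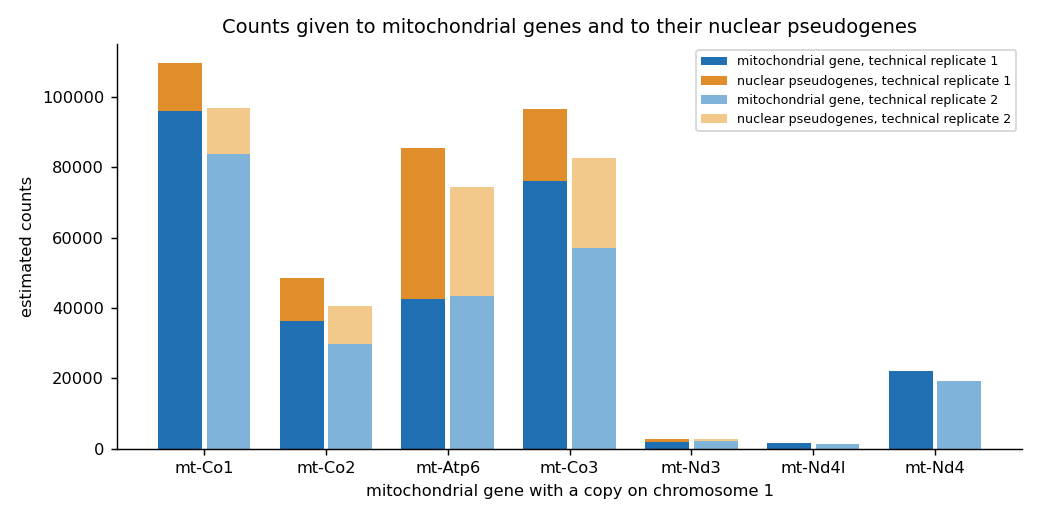
Estimated counts of the 7 mitochondrial genes with a copy on chromosome 1 (blue) and of all their nuclear pseudogenes stacked above (orange), dark for technical replicate 1 and light for technical replicate 2. For mt-Atp6 the orange part is 50.1% and 41.5% of the bar, and for mt-Nd4l and mt-Nd4 there is none.

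With the counts of each copy added to its gene, the levels within the mt-Co1 to mt-Co3 run shifted. The gene mt-Atp6 came closer to mt-Co3, and mt-Co1 to mt-Co2, whereas mt-Atp6 and mt-Atp8 moved apart. Here mt-Atp6 stood at 10881 and 10713 TPM and mt-Co3 at 10565 and 10233 TPM. The ratio of mt-Co3 to mt-Atp6 was then 0.97 and 0.96, and their SDs over the libraries shrank from 593 to 119 TPM for mt-Atp6 and from 910 to 234 TPM for mt-Co3. The summed levels of mt-Co1, 5890 and 5900 TPM, and of mt-Co2, 6143 and 5829 TPM, also overlapped, whereas without the copies they did not. For mt-Atp8 no annotated copy exists, although the place that corresponds to it lies inside the block, and mt-Atp6 with its copy was 1.86 and 1.91 times mt-Atp8.

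The smaller gene table, whole-number counts against the older GENCODE M4 annotation, held the 13 mRNA genes but no rRNA or tRNA gene, and ordered them differently. The genes mt-Co2, mt-Atp8, mt-Atp6, mt-Co3 and mt-Nd4l had 0 counts in both libraries, among them the gene with the highest level in the larger table. The highest was mt-Nd5, with 3113 and 3073 counts. It was followed by mt-Cytb with 2254 and 2244 and mt-Nd1 with 1861 and 1856.

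Further down came mt-Nd2 with 1673 and 1644 counts and mt-Co1 with 1435 and 1438. Then mt-Nd4 had 1034 and 1028 counts, mt-Nd6 917 and 889, and mt-Nd3 17 and 9. The libraries thus nearly coincided for each gene except mt-Nd3, although their totals differed. Among the 8 genes with any count, these counts were at most 24.96% of those in the larger table, for mt-Nd6. They were 1.49% and 1.72% for mt-Co1 and lowest for mt-Nd3, at 0.889% and 0.418%.

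The number of positions in each gene at which a 50-nt read could start without being shared with an annotated nuclear transcript was counted from the transcript sequences. Of the 50-nt stretches of mt-Co2, 100% were shared. The shares were 99.9% for mt-Co3, 99.5% for mt-Atp6, 98.8% for mt-Nd4l and 97.99% for mt-Nd3, the genes at or near 0 in the smaller table. For the 7 genes with at least 300 unshared positions and any count, the count was 0.921 to 1.03 times the number of unshared positions in both read orientations in technical replicate 1 and 0.905 to 1.02 times in technical replicate 2. Taking both orientations was chosen after the counts had been seen.

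Across the 13 genes, as a description over genes of a library, smaller-table counts and unshared positions had a Pearson r of 0.995 in both libraries. Against the estimated counts of the larger table r was 0.081 and 0.106. The exception was mt-Atp8, which had 155 unshared start positions among transcripts but 0 counts. The smaller table was therefore not read as an order of RNA levels for these genes. How it filtered reads is not given in the sources used here, and the cause was not tested.

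**Figure D3:**
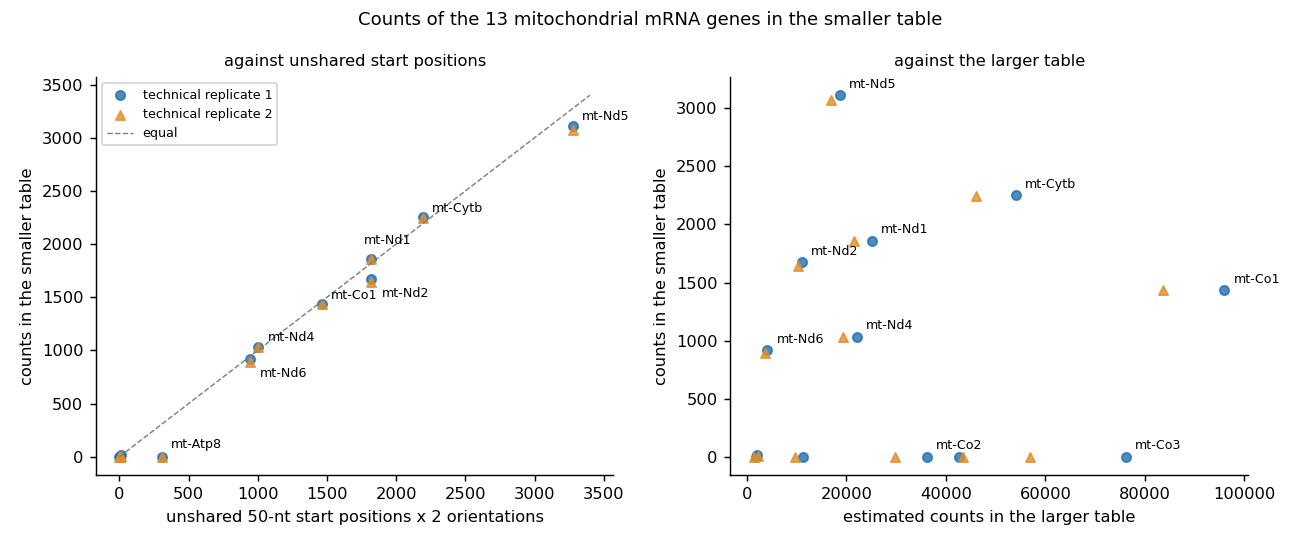
Counts of the 13 mitochondrial mRNA genes in the smaller table against unshared 50-nt start positions in both orientations (left, dashed line of equality) and against estimated counts in the larger table (right), for technical replicate 1 (circles) and 2 (triangles). Genes follow the line on the left with r = 0.995, except mt-Atp8 at 0 counts, and on the right r is 0.081 and 0.106.

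Subunits encoded by the mitochondrial genome were compared with the nuclear-encoded subunits of the same complexes, all 71 of which reached 1 TPM in both libraries. The nuclear complex I genes had a median of 157 TPM over 36 genes, led by Ndufa3 at 541, Ndufa6 at 433 and Ndufa7 at 320 TPM. The median mitochondrial complex I mRNA was 5.25 and 5.74 times as high. By mean TPM 6 of the 7 mitochondrial mRNAs lay above Ndufa3, and mt-Nd4l lay beside it at 540 TPM. Which gene fell below Ndufa3 changed with the library, mt-Nd3 in technical replicate 1 and mt-Nd4l in technical replicate 2.

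In the other complexes every mitochondrial mRNA lay above every nuclear one. For complex III, with a median of 246 TPM over 9 nuclear genes and Uqcrh (650 TPM), Uqcrb (344 TPM) and Uqcr10 (306 TPM) at the top, the ratio was 16.2 and 15.7. For complex IV, with a median of 329 TPM over 11 nuclear genes led by Cox4i1 (795 TPM), Cox6b1 (502 TPM) and Cox6c (434 TPM), it was 15.1 and 16.1. The ATP synthase genes of the nucleus had a median of 286 TPM over 15 genes, led by Atp5h (504 TPM), Atp5e (465 TPM) and Atp5l (416 TPM), and the ratio was 19.5 and 20.9. The median gene among the 13511 at 1 TPM or more in both libraries stood at 13.4 TPM, so nuclear subunits too were abundant.

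**Figure D4:**
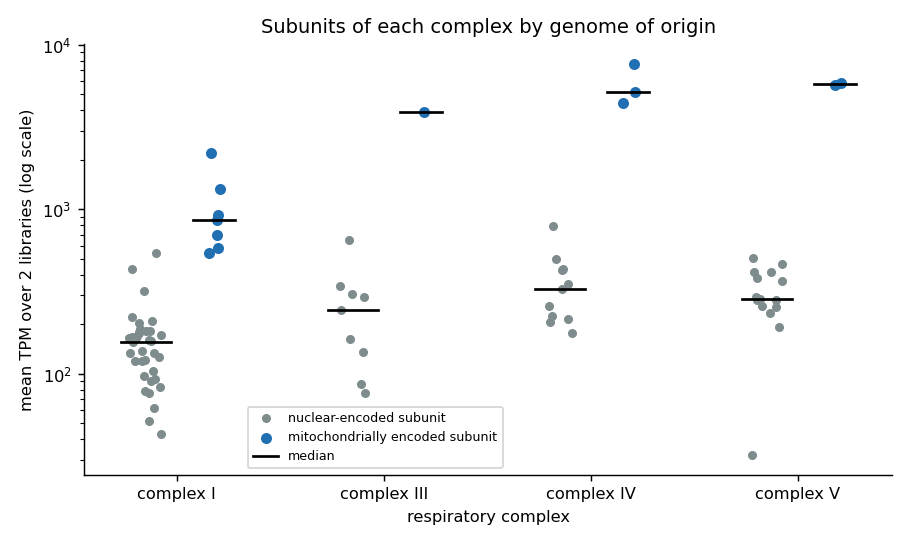
Mean TPM over the 2 technical libraries, on a log axis, of nuclear-encoded (grey) and mitochondrially encoded (blue) subunits of respiratory complexes I, III, IV and V, with a black line at each median. By these means the blue points lie above all grey points of their complex except for mt-Nd4l in complex I.

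To ask how far the levels depend on the library, each gene was tested between the technical libraries with a two-sided exact binomial test on rounded counts, with Benjamini-Hochberg adjustment over 17334 genes. This compares libraries of the same biological replicate and no conditions. Of the 27 mitochondrial genes with at least 10 counts summed, 11 were called at an adjusted p under 0.05. Over all genes tested 19.2% were called (9.42% higher and 9.78% lower in technical replicate 2), and the test gains power with counts, of which the mitochondrial mRNA genes have at least 1377 in each library.

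Higher in technical replicate 2 were 4 genes, mt-Rnr1, mt-Nd2, mt-Atp6 and mt-Nd3. Lower were 7, mt-Nd1, mt-Co1, mt-Co2, mt-Atp8, mt-Co3, mt-Nd4l and mt-Cytb. Most of these differences were small, at most 0.11 on the log2 scale, apart from 4 genes. For mt-Nd3, with 1911 and 2152 estimated counts, the log2 ratio was 0.35 (adjusted p = 5.6e-12 in the exact binomial test). For mt-Co3, with 76135 and 56889 counts, it was -0.24 (adjusted p = 3.35e-202 in the exact test). It was 0.21 for mt-Atp6, with 42602 and 43459 counts (adjusted p = 4.28e-93 in the exact test), and -0.18 for mt-Nd4l, with 1768 and 1377 counts (adjusted p = 0.0044 in the exact test).

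All 4 of these genes have a copy in the chromosome 1 block, and for 3 of them the copy moved the opposite way by estimated counts. The log2 ratio was -0.30 for Gm10925, 0.51 for Gm28437 and -0.34 for Gm28438. With copies added, the log2 ratio of mt-Co3 became -0.05, that of mt-Nd3 0.16, and that of mt-Atp6 changed sign to -0.02. For mt-Nd4l, whose copy was given 0 estimated counts, the log2 ratio stayed at -0.18. By posterior mean counts that copy, Gm10222, held 111 and 126 counts and mt-Nd4l 1657 and 1251. The genes mt-Co1, mt-Co2 and mt-Nd4 also have a copy in the block, and their log2 ratios as deposited were -0.02, -0.11 and -0.02. In the fit with copies added, 10 mitochondrial genes were called, 3 higher and 7 lower, and mt-Co1 was no longer among them. Over all 17326 genes of that fit 19.2% were called.

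The binomial test assumes that read sampling alone separates the libraries, yet the mean squared deviation over all genes was 4.98 times that of sampling. The spread allowed by the model given next was estimated from these same libraries without a group, so the difference under test itself counted as noise. Few or no calls in that model therefore cannot decide whether a gene differs between the libraries. Under another model, edgeR's exact test with a common dispersion, which allowed every gene a coefficient of variation of 0.105 whatever its counts, 0 of the 27 mitochondrial genes were called, against 1.8% of all genes, with 0 of the 27 at an unadjusted p under 0.05 and a lowest adjusted p of 0.75, for mt-Nd3. In the smaller table the binomial test called 1 of 8 mitochondrial genes, mt-Nd5 (log2 ratio 0.11, adjusted p = 0.037 in the exact test), against 6.57% of its 11051 genes. The 7 genes with at least 300 unshared positions all had log2 ratios between 0.088 and 0.135 there, as their counts were close in both libraries while the library totals were not.

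**Figure D5:**
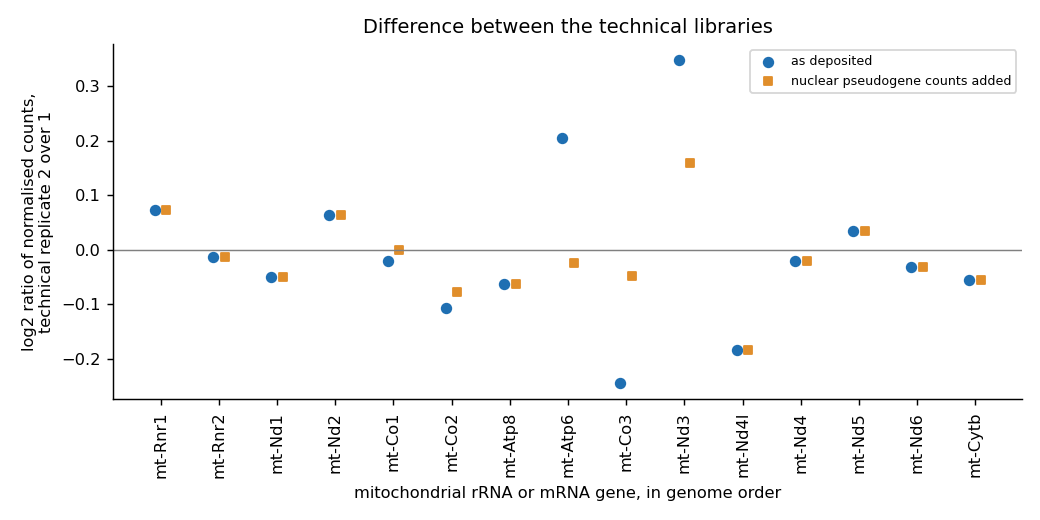
Log2 ratio of normalised counts in technical replicate 2 over technical replicate 1 for the rRNA and mRNA genes in genome order, as deposited (blue circles) and with nuclear pseudogene counts added (orange squares). The values of mt-Atp6 and mt-Co3, 0.21 and -0.24 as deposited, come to -0.02 and -0.05.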

How the data were processed

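The authors deposited, for each library, a larger gene table (mm10, GENCODE M21, from transcriptome alignments) and a smaller one (M4, from genome alignments), per the text deposited with each library. The larger table holds estimated counts, posterior mean counts and TPM, per the file headers, and credibility bounds and posterior SDs, recorded as signal values, as deposited. The smaller table holds whole-number counts, as deposited. Aligner, counter, versions, strand setting and read filters are not given in the sources used here. Effective length was 49 nt shorter than length for 99.9% of entries. Whole numbers, within 0.005, made up 59.8% and 59.3% of the estimated counts above 0. Entries without a gene name took 0.174% and 0.158% of the counts and were left out. The transcript tables were not used, since each mitochondrial gene has 1 transcript.

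Estimated counts were rounded for the tests. The expected share of the exact binomial test came from TMM sizes (edgeR 4.0.16, R 4.3.3, scipy 1.17.1, statsmodels 0.14.6), for genes with at least 10 counts summed. The test was also run on simulated counts that held read sampling and set changes only. Those counts lack the extra spread seen between these libraries, so that run cannot tell how the test behaves on these libraries. With 1 library on each side no quasi-likelihood test was possible. DESeq2 1.42.0 gave alternative size factors. Pseudogenes were found with blastn (BLAST+ 2.17.0) among M21 transcripts, at 95% identity over 100 nt or over 80% of the entry; nuclear sequence outside annotated transcripts was not examined. Values given in a pair are technical replicates 1 and 2. Neighbours in level were called not separated where their ranges over the libraries overlapped. Named genes were all mt- genes, of each other list the 3 highest and members under 1 TPM, and pseudogenes with a mean of 10 TPM or more; Foxp3 was named as the defining marker and Gm10222 and Gm28439 after their values were seen. A marker gene of the lists is not reported here. The members and lists were chosen with earlier results of these data known.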

Additional observations from a re-analysis of the deposited data

How the results depend on the processing

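The libraries held 1 biological replicate, so no result speaks to the spread between animals. No paired analysis was possible because the labels give 1 group. The mitochondrial share, 3.68% on average, was 3.56% with posterior mean counts, 5.79% of summed TPM, 4.27% with pseudogenes added, 2.61% without the rRNA genes and 0.358% in the smaller table. Leaving out either library gave 3.65% to 3.72%. The mRNA share, 69.8%, became 68.7% with posterior mean counts, 75.8% with counts per kb and 74.0% with pseudogenes added, which for class shares, complexes and calls was chosen after seeing the data. The rRNA share, 29.9%, became 30.9%, 19.6% and 25.8% in the same order, and 17.1% of summed TPM. The tRNA share, 0.337%, became 0.349%, 4.63% and 0.290% in the same order, 13.4% of summed TPM, and 0.0485% without mt-Ts1, which was also chosen after seeing the data; short effective lengths raise it per length. The smaller table has no rRNA or tRNA gene, so those alternatives gave no value. Calls between the libraries, 4 higher and 7 lower, were 1 and 0 in the smaller table and 0 and 0 with edgeR's common dispersion; TMM, total-count, DESeq2 and upper-quartile scaling gave 4 higher and 7 or 8 lower. The lowest mRNA of complexes III to V over the highest of complex I was 1.778. It was 1.76 with posterior mean TPM, 1.79 with counts per kb, and 0 in the smaller table, where 4 of these mRNAs have 0 counts. Per kb in the smaller table, mt-Co1 lies below mt-Nd1 (929 and 931 against 1945 and 1939), and mt-Cytb lies slightly above mt-Nd1 (1970 and 1962). Heavy-strand mRNA over mt-Nd6, 4.37, was 4.61 with counts per kb and 0.226 in the smaller table, which is the reverse order. Counts of the smaller table followed unshared start positions apart from mt-Atp8, and the cause was not tested. None of its values was therefore read as an RNA level. Mitochondrial over nuclear subunits became, with counts per kb, 5.94 for complex I, 17.1 for III, 16.9 for IV and 17.8 for V, and with pseudogenes added 18.3 for IV and 28.8 for V. Pseudogenes held 0.717% of posterior mean counts against 0.590% of estimated counts. Of the 13 mRNA genes, rank among mRNAs moved for 2 with counts per kb, 3 with posterior mean TPM, 7 with pseudogenes added and 13 in the smaller table.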

Other observations

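Genes that transcribe, process and translate mitochondrial RNA are nuclear, and every member of the lists examined reached 1 TPM in both libraries. The transcription list had a median of 23.9 TPM over 9 genes, with Mterf3 at 62.2, Tfam at 59.3 and Mterf1a at 26.2 TPM. The DNA replication list stood at 21.7 TPM, with the single-stranded DNA binding protein gene Ssbp1 at 98.3, Dguok at 66.1 and Tk2 at 39.8 TPM. For cleavage at tRNAs the median was 17.2 TPM over 4 genes, with Hsd17b10 at 87.5, Trmt10c at 24.6 and Elac2 at 9.87 TPM. The polyadenylation, stability and decay list stood at 19.6 TPM, led by the exonuclease gene Rexo2 at 157, Slirp at 86.0 and Fastk at 44.7 TPM. The rRNA modification and assembly list was lowest at 11.3 TPM, with Dhx30 at 73.8, Eral1 at 31.4 and Rpusd4 at 31.2 TPM, and the translation factors stood at 29.4 TPM, with Oxa1l at 64.1, Tufm at 51.7 and Mtif2 at 41.5 TPM.

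Between the technical libraries the exact binomial test, which allows for read sampling alone, called 19.2% of all genes. In the transcription list 2 genes were called higher and 1 lower in technical replicate 2, of 9 tested. In the polyadenylation list 2 were higher and 1 lower of 14. In the cleavage list 0 were higher and 1 lower of 4, and in the rRNA modification list 0 were higher and 1 lower of 10. The replication and translation factor lists had 0 calls. By level, the called genes included Tfam, which packages mitochondrial DNA and activates its transcription, with 69.9 and 48.8 TPM, and Mterf3 with 52.9 and 71.4 TPM.

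In the smaller table, the count of a gene divided by its exon positions in both orientations was compared over 21356 genes with at least 500 nt of exon. The median of genes with a count was 0.0077. Among these genes 0 exceeded 1, and the highest share was 0.983. The 4 that reached 0.8 were mt-Cytb, mt-Nd1, mt-Nd6 and mt-Nd5. Shorter genes, which the length minimum leaves out, also reached such shares: the T cell receptor segments Trbd2 at 1.82, Trbd1 at 1.81, Trbj2-7 at 1.08 and Trbj1-2 at 1.06, named after their values were seen, and 6 other Trbj segments above 0.8. With 12 to 53 nt of exon, these segments are close to or below the 50 nt of a read. Their exon positions need not count every start from which a read can reach them. Their shares therefore cannot be set beside those of longer genes. Among genes of at least 500 nt, the next shares below 0.8 were mt-Nd2 at 0.799 and Ighm at 0.786.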
